A study of Mus musculus with 5 samples.

Results

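Gluconeogenesis and its control by insulin were examined through 9 mouse genes chosen by symbol. Pcx, Pck1, Fbp1 and G6pc encode the 4 enzymes that bypass the irreversible steps of glycolysis, Slc2a2 encodes the liver-type glucose transporter and Pklr the liver and red cell pyruvate kinase, and Irs2, Foxo1 and Ppargc1a belong to the control of the pathway by insulin and fasting. Of the 22059 genes tested, 6 were these genes, namely Pcx, Slc2a2, Pklr, Irs2, Foxo1 and Ppargc1a. Pck1, G6pc and Fbp1 were paired with no probe set of their own symbol alone in the annotation used, and their levels were not analysed here.

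By the labels and the study's methods, the RNA came from primary cortical astrocytes of 1-day-old FVB mice heterozygous for a LRRK2 transgene, carrying either the Parkinson's disease mutation G2019S (LRRK2-GS, 3 arrays) or the wild-type form (LRRK2-WT, 2 arrays). LRRK2 is a large kinase whose G2019S form is more active. Both genotypes received the inhibitor of N-glycosylation tunicamycin, which stresses the endoplasmic reticulum (ER), at 0.2 μg/ml for 3 h by the labels, while the study's text gives a longer treatment and one of its legends a lower dose. No untreated array was analysed here, so each comparison asks how the genotypes differed under ER stress, and the effect of the drug itself could not be measured. The sources used here do not name the promoter that drives the transgene, nor do they say whether arrays of a genotype came from separate cultures or animals. The p-values therefore measure only the variation among these arrays, part or all of which may be technical.

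In gluconeogenesis, cells build glucose from lactate, glycerol and amino acids, mainly in the liver and the kidney cortex. Pyruvate is carboxylated in mitochondria, converted to phosphoenolpyruvate and carried backwards through the shared steps of glycolysis to glucose 6-phosphate, from which free glucose is released. Glucagon acts through cAMP and the factor CREB to induce the coactivator PGC-1alpha (Ppargc1a), which works with the forkhead factor FOXO1 on the genes of the pathway, whereas insulin acts through its receptor, IRS2 and AKT to keep FOXO1 out of the nucleus.

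Upstream sequences are shown for Ppargc1a and Irs2, since these were the genes whose means differed most between the genotypes. Each run is the 250 bases before the start of transcription, read 5′ to 3′ on the strand of the gene, from RefSeq on build GRCm38.p6. Both genes lie on the minus strand, at chr5:51567726-51567975 and chr8:11008930-11009179. Capitals mark the short core of a cAMP response element in Ppargc1a, read here as the reverse complement of TGACG, and the core of an insulin response sequence, TGTTTTG, in Irs2.
Ppargc1a: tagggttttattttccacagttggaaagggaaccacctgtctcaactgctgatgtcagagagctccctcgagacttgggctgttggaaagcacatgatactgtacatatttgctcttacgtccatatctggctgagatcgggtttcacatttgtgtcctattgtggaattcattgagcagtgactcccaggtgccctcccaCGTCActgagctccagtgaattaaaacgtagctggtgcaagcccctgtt
Irs2: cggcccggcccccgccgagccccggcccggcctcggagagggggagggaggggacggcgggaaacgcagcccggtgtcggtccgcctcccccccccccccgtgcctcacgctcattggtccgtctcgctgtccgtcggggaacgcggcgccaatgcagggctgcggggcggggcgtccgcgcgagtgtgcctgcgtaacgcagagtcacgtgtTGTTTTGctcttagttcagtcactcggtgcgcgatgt

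Counted from the start of transcription, with the base before it as position -1, the TGACG of Ppargc1a lay at positions -49 to -45 and the TGTTTTG of Irs2 at -37 to -31. Among the 9 genes, TGACG also occurred before Pck1, at -90 to -86, and TGTTTTG before G6pc, at -174 to -168. Searched on both strands of 32851 RefSeq promoters of this length, TGACG occurred in 17.8% and TGTTTTG in 5.56%. The full cAMP response element TGACGTCA, which contains TGACG, occurred in 1.55% of promoters and the forkhead core TGTTTAC in 3.17%, and neither was found before any of the 9 genes. Such a match describes letters in this window, and binding of a factor was not measured on these arrays.

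The arrays, Affymetrix Mouse Gene 2.0 ST, gave deposited log2 expression values for 33640 probe sets, with array medians of 3.26 to 3.28 and Pearson's r of 0.986 to 0.994 between arrays across probe sets. A level of 3.39, the 95th percentile of 1107 probe sets of olfactory receptor genes, served as a mark of background. In these RNAs all 18 measured hepatocyte markers of a list of 20 lay above that mark on every array, with Alb at 12.61 in LRRK2-GS and 12.66 in LRRK2-WT. Of 15 astrocyte markers, 11 did so, among them Gfap at 4.16 in LRRK2-GS and 4.05 in LRRK2-WT, while Aqp4 averaged 2.76 in LRRK2-GS and 2.75 in LRRK2-WT, and S100b averaged 2.12 in LRRK2-GS and 2.07 in LRRK2-WT, all below the mark. The hepatocyte transcripts and the low Aqp4 and S100b go against the labelled cell type. Gfap lay far nearer to the mark than to Alb. Which cells gave Gfap and the other astrocyte markers above the mark was not tested. Some other tissues also use members of the 9. Their markers above the mark on every array were 2 of 8 for pancreatic islets, 2 of 10 for kidney proximal tubule and 4 of 10 for enterocytes. Fabp2, an enterocyte marker, averaged 5.72 in LRRK2-GS and 5.63 in LRRK2-WT. Vil1 at 2.93 in LRRK2-GS and 2.97 in LRRK2-WT, and Lct at 3.04 in LRRK2-GS and 3.02 in LRRK2-WT, lay below the mark. Among other cell types, 8 of 9 endothelial, 7 of 10 microglia and macrophage, 4 of 10 neuron and 2 of 8 oligodendrocyte markers lay above it on every array. Xist averaged 2.57 in LRRK2-GS and 8.29 in LRRK2-WT, and the Y-linked Eif2s3y averaged 6.41 in LRRK2-GS and 2.17 in LRRK2-WT, so sex and genotype cannot be told apart in any comparison below.

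Under tunicamycin, Irs2 and Ppargc1a were lower on all 3 LRRK2-GS arrays than on both LRRK2-WT arrays, with means that differed 1.85-fold and 1.98-fold. Slc2a2 and Pklr were also lower on every LRRK2-GS array, by smaller amounts, and Pcx and Foxo1 overlapped between the genotypes. None of the 6 genes passed the test, which required an adjusted p of at most 0.05 in limma and a difference over 1.5-fold, and 0% of the 23396 tested probe sets did. At an unadjusted p under 0.05 limma gave 489 probe sets and the methods' t-test gave 331, none of them a probe set of the 6 genes. All 6 genes lay above the background mark of 3.39 on every array. In such bulk RNA, fewer cells of a type and less RNA per cell cannot be told apart.

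**Figure D1:**
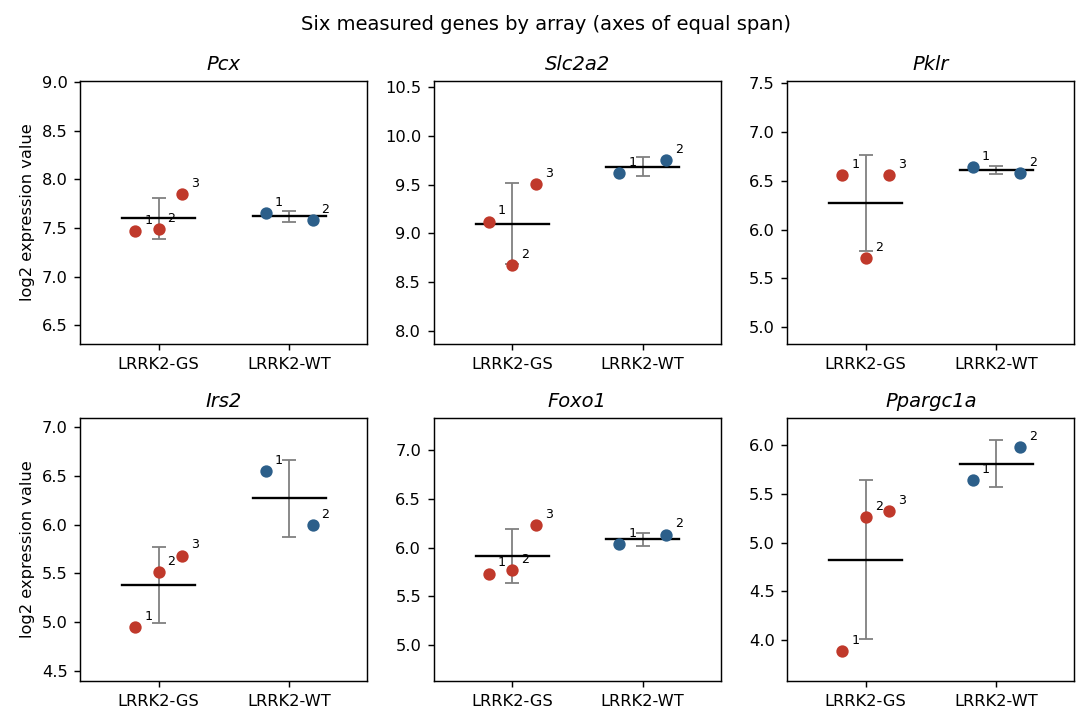
Log2 expression value (y axis, equal span in every panel) of the 6 measured genes on the LRRK2-GS arrays (red, left, n = 3) and LRRK2-WT arrays (blue, right, n = 2), numbered by replicate; black lines are group means and gray bars 1 SD. The genotypes do not overlap for Slc2a2, Pklr, Irs2 and Ppargc1a and overlap for Pcx and Foxo1.

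Pcx encodes pyruvate carboxylase, the mitochondrial enzyme that makes oxaloacetate as the entry to gluconeogenesis and, in astrocytes, to the replacement of citric acid cycle intermediates. Its log2 value was 7.47, 7.49 and 7.84 on LRRK2-GS arrays 1, 2 and 3, and 7.66 and 7.58 on LRRK2-WT arrays 1 and 2. LRRK2-GS array 3 held the highest value and the other LRRK2-GS arrays the lowest, so the genotypes overlapped. Pcx averaged 7.60 ± 0.21 in LRRK2-GS (SD, n = 3) and 7.62 ± 0.054 in LRRK2-WT (SD, n = 2), a difference of -0.018 with a 95% confidence interval of -0.44 to 0.41 (limma, adjusted p = 1.0). The sign of this difference turned to 0.025 after quantile normalization and to 0.047 without LRRK2-GS array 1.

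Slc2a2 encodes GLUT2, the low-affinity transporter through which hepatocytes and pancreatic beta cells of the mouse pass glucose in both directions. It had the highest level of the 6 probe sets, at 9.12, 8.67 and 9.51 on LRRK2-GS arrays 1, 2 and 3, and 9.61 and 9.75 on LRRK2-WT arrays 1 and 2. All LRRK2-GS values lay below both LRRK2-WT values, array 3 by a narrow margin and array 2 by the widest. The means were 9.10 ± 0.42 in LRRK2-GS and 9.68 ± 0.097 in LRRK2-WT, a difference of -0.58 (95% interval -1.42 to 0.25, limma adjusted p = 0.826), which is just under 1.5-fold. The interval includes 0 as well as differences well over 1.5-fold, and leaving out single arrays moved the difference between -0.79 and -0.37.

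Pklr encodes the pyruvate kinase of liver and red cells, which catalyses the last step of glycolysis and so opposes gluconeogenesis. LRRK2-GS arrays 1, 2 and 3 gave 6.56, 5.71 and 6.56, and LRRK2-WT arrays 1 and 2 gave 6.64 and 6.58. Replicates 1 and 3 of LRRK2-GS held an identical deposited value, close to the lower LRRK2-WT value, and only array 2 stood clearly below. Pklr averaged 6.27 ± 0.49 in LRRK2-GS and 6.61 ± 0.043 in LRRK2-WT, which differ by -0.34 (95% interval -1.31 to 0.64, limma adjusted p = 0.826). Without LRRK2-GS array 2 the difference was -0.053, so that its size rested on that array.

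Irs2 encodes an adaptor that the activated insulin receptor phosphorylates and that passes the signal on to phosphoinositide 3-kinase and AKT. On LRRK2-GS arrays 1, 2 and 3 its probe set read 4.95, 5.51 and 5.68, against 6.55 and 5.99 on LRRK2-WT arrays 1 and 2. Every LRRK2-GS array was below every LRRK2-WT array, and the 2 LRRK2-WT arrays differed from each other by more than the gap between the genotypes. Means were 5.38 ± 0.39 in LRRK2-GS and 6.27 ± 0.39 in LRRK2-WT, giving -0.89 (95% interval -1.83 to 0.050) at an unadjusted p of 0.0578 and an adjusted p of 0.826 in limma. Of all tested probe sets, dim and constant ones included, 0.244% had a larger absolute difference. Leaving out LRRK2-WT array 1 gave -0.61, and leaving out the other array of that genotype gave -1.17. A further probe set, shared by Irs2 and 9530052E02Rik and therefore not tested, read 3.20, 3.63 and 3.27 in LRRK2-GS, against 3.20 and 3.00 in LRRK2-WT, around the background mark, with a difference of 0.27.

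Foxo1 encodes the forkhead factor that activates gluconeogenic genes when insulin is low. It read 5.73, 5.77 and 6.23 on LRRK2-GS arrays 1, 2 and 3, and 6.04 and 6.14 on LRRK2-WT arrays 1 and 2. The third LRRK2-GS array exceeded both LRRK2-WT arrays and the other two lay below them. Foxo1 averaged 5.91 ± 0.28 in LRRK2-GS and 6.09 ± 0.068 in LRRK2-WT, a difference of -0.18 (95% interval -0.73 to 0.38, limma adjusted p = 0.826). It moved between -0.34 without LRRK2-GS array 3 and -0.087 without array 1 of that genotype. Its other probe set, at a lower level of 4.25, 4.64 and 4.75 in LRRK2-GS, and 4.64 on both arrays in LRRK2-WT, differed by -0.094.

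Ppargc1a encodes PGC-1alpha, a coactivator that drives mitochondrial biogenesis in many tissues and, in fasted liver, the transcription of gluconeogenic enzymes. The values were 3.88, 5.27 and 5.33 on LRRK2-GS arrays 1, 2 and 3, and 5.64 and 5.98 on LRRK2-WT arrays 1 and 2. The genotypes did not overlap, and array 1 of LRRK2-GS stood far below the other four. Ppargc1a averaged 4.83 ± 0.82 in LRRK2-GS and 5.81 ± 0.24 in LRRK2-WT, a difference of -0.99 (95% interval -2.63 to 0.66, limma adjusted p = 0.826). Among all tested probe sets, with dim and constant ones, 0.171% differed by more in absolute size. Without LRRK2-GS array 1 the difference was -0.52, under 1.5-fold, and without LRRK2-GS array 3 it was -1.24. Irs2 and Ppargc1a, and Pdk2 and Nr1d1 named below, also stand in a gene list that the study drew from these same arrays. Their direction here is therefore not independent evidence. The study's methods say that genes over 1.5-fold at an adjusted p of at most 0.05 were listed. Here no tested probe set passed both thresholds, in limma or by the methods' t-test. Why the outcomes differ was not tested.

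Read together, the 6 means were all lower in LRRK2-GS, with a median difference of -0.46, against a median of 0 over all tested probe sets. A lower mean of any size was common, at 42.7% of all tested probe sets and 51.1% of those above the median level, where the 6 genes lie. Of the 6, Irs2 and Ppargc1a were over 1.5-fold lower, a size reached downward by 0.500% of all tested probe sets and 0.898% of those above the median level. The 4 genes Slc2a2, Pklr, Irs2 and Ppargc1a had every LRRK2-GS array below both LRRK2-WT arrays, which held for 3.74% of all tested probe sets and 5.73% of those above the median level. The genes were measured in the same 5 RNAs, so they are not independent of each other. They were also chosen with earlier results of these data known, so these counts are a description only.

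The LRRK2-GS arrays differed in how far the 6 genes lay from the LRRK2-WT mean. On array 1 all 6 lay below it with a median of -0.46, and on array 2 all 6 with a median of -0.65. On array 3 the median was -0.12 with 4 of 6 below, in a range of -0.59 to 0.23. Different genes carried the low values, with Ppargc1a at -1.93 on array 1, and Slc2a2 at -1.01 and Pklr at -0.90 on array 2. The hepatocyte markers, of which 2 were higher and 16 lower in LRRK2-GS, had log2 summed levels of 15.23, 15.34 and 15.51 on LRRK2-GS arrays 1, 2 and 3, and 15.49 and 15.53 on LRRK2-WT arrays 1 and 2. These sums were lowest on the 2 arrays where the 6 genes were lowest, and their part in the differences was not tested. Endothelial markers, of which 1 was higher and 7 were lower, had a median difference of -0.19, beside -0.14 for the hepatocyte markers.

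**Figure D2:**
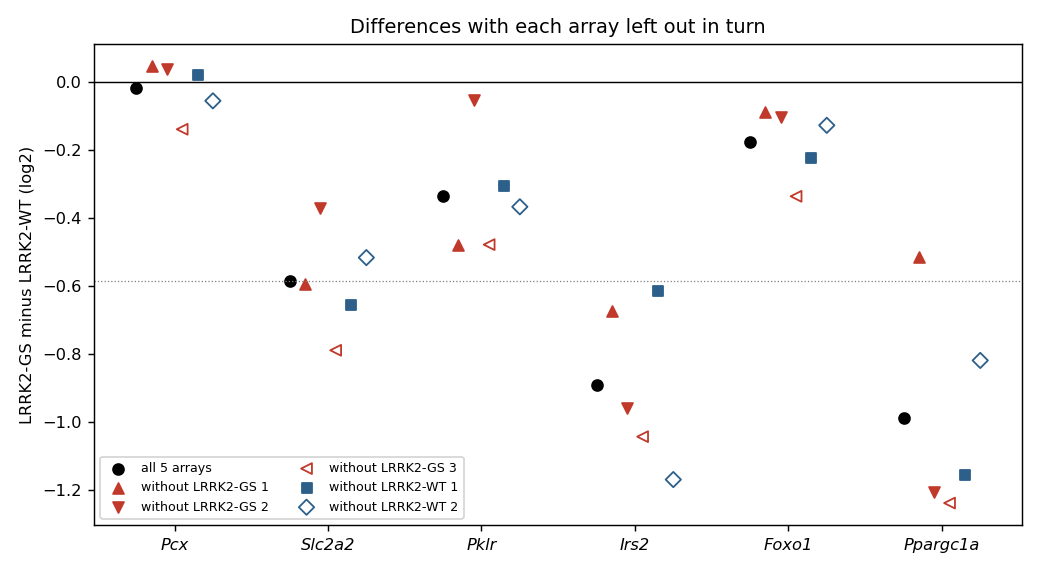
Difference between genotypes (LRRK2-GS minus LRRK2-WT, log2, y axis) for each of the 6 genes with all 5 arrays (black) and with each array left out in turn (other symbols); the dotted line marks 1.5-fold lower. Irs2 stays between -0.61 and -1.17, Ppargc1a reaches -0.52 without LRRK2-GS array 1, and Pcx lies on either side of 0.

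Each of the 6 genes except Pcx has a close relative that serves the same step in other tissues, or a related one. None of the relatives passed the test, and the differences between a gene and its relative were not tested. Slc2a1 encodes GLUT1, the transporter of astrocytes, endothelium and many growing cells. It read 6.30, 5.13 and 5.13 in LRRK2-GS, against 4.77 and 4.85 in LRRK2-WT, so all LRRK2-GS arrays were above both LRRK2-WT arrays. Its difference was 0.71 (limma adjusted p = 0.826), 0.39 as the mean over its probe sets, and 0.32 without LRRK2-GS array 1, the array that also held the lowest Ppargc1a and Irs2 values. Slc2a3, the neuronal transporter GLUT3, differed by 0.059 at a level below the background mark, and Slc2a4, the insulin-responsive GLUT4, by -0.0033, with a sign that turned without single arrays.

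Pkm, the pyruvate kinase of most tissues other than liver, differed by 0.15, and Irs1, the receptor substrate that acts beside Irs2, by -0.15. Among the other forkhead factors that AKT controls, Foxo3 differed by -0.16, Foxo4 by -0.042 and Foxo6 by -0.045, all with overlapping genotypes. Ppargc1b, another PGC-1 coactivator, differed by -0.26. Each of these values moved over 1.5 times with 1 array left out, Pkm to 0.037 without LRRK2-GS array 1, Irs1 to -0.038 without LRRK2-GS array 2, Foxo3 to 0.017 without LRRK2-GS array 1 and Ppargc1b to -0.061 without LRRK2-WT array 1. For the enzymes without a value of their own here, the mitochondrial phosphoenolpyruvate carboxykinase Pck2 differed by -0.090 and the widely expressed glucose 6-phosphatase G6pc3 by 0.023, while the islet form G6pc2 held 1 value on all arrays. Muscle fructose bisphosphatase Fbp2 read 3.10, 3.50 and 3.10 in LRRK2-GS, against 2.91 and 2.93 in LRRK2-WT, mostly below the background mark.

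**Figure D3:**
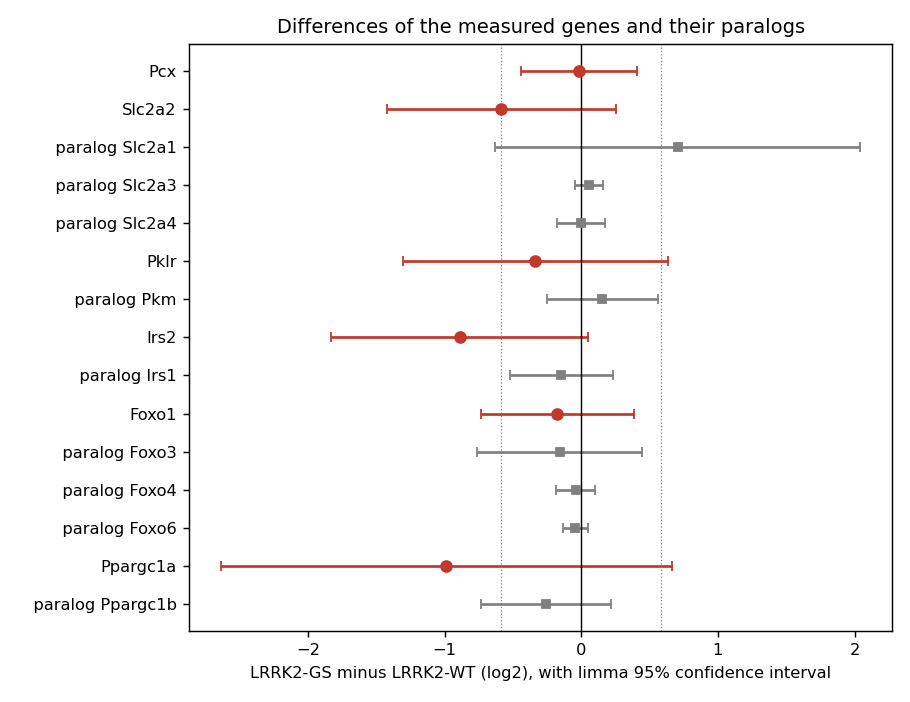
Difference between genotypes (LRRK2-GS minus LRRK2-WT, log2, x axis) with limma's 95% confidence interval for the 6 genes (red circles) and their relatives (gray squares); dotted lines mark 1.5-fold. Every interval of the 6 genes includes 0, from -0.018 for Pcx to -0.99 for Ppargc1a, and Slc2a1 at 0.71 is the only relative beyond the dotted lines.

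The genes around the 9 were counted in 8 lists, with the 6 genes left out, and no gene of any list passed the test. For the enzymes, shuttles and transporters that share the gluconeogenic route, 29 symbols were listed, with Gk and Gyk both among them. Of these, 23 were measured, 9 higher and 13 lower in LRRK2-GS, with a median difference of -0.041. Got1, the cytosolic aspartate aminotransferase of the malate-aspartate shuttle, differed most. It read 7.56, 7.01 and 7.40 on LRRK2-GS arrays 1, 2 and 3, and 8.30 and 8.68 on LRRK2-WT arrays 1 and 2, which is lower on every LRRK2-GS array. Its difference was -1.17 (95% interval -1.84 to -0.49) with an unadjusted p of 0.0098 and an adjusted p of 0.826 in limma. Slc25a13, the aspartate-glutamate carrier citrin of the same shuttle, differed by -0.54, and Gpt, which makes pyruvate from alanine, by -0.48, both with overlapping genotypes. Slc25a13 differed by -0.34 without LRRK2-WT array 1, and for Gpt only -0.035 was left without LRRK2-GS array 2, whereas Got1 stayed between -1.36 and -0.97.

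In glycolysis and pyruvate oxidation 26 of 29 genes were measured, 13 higher and 12 lower in LRRK2-GS, with a median of 0.0081. Pdk2, a kinase that switches pyruvate dehydrogenase off, and Gckr, the hepatic protein that holds glucokinase in the nucleus, were below LRRK2-WT on every LRRK2-GS array, by -0.59 and -0.53. Gckr differed by only -0.21 without LRRK2-GS array 2, and Eno3, the muscle enolase, differed by 0.37 with overlap and by 0.016 once LRRK2-WT array 2 was left out. Among glycogen genes 18 of 20 were measured, 6 higher and 12 lower, with a median of -0.075. Gbe1, the glycogen branching enzyme, was above LRRK2-WT on every LRRK2-GS array at 0.58. Ppp1r3c, a scaffold that directs a phosphatase to glycogen, differed by -0.68 and the liver glycogen synthase Gys2 by -0.58, both with overlap. Ppp1r3c differed by only -0.31 without LRRK2-GS array 2 and Gys2 by only -0.026 without LRRK2-WT array 1. All 13 glucose transporters were measured, 6 higher and 5 lower with a median of 0, and after Slc2a1 the largest differences were -0.36 for Slc2a9, a urate carrier, and 0.16 for Slc2a8, which single arrays left out brought to -0.17 (LRRK2-WT array 1) and 0.064 (LRRK2-GS array 3).

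From the insulin receptor to AKT, 32 of 37 genes were measured, 13 higher and 18 lower with a median of -0.021. None was over 1.5-fold in either direction, a size that only 224 of the 23396 tested probe sets reached. The receptor itself, Insr, differed by -0.15 with every LRRK2-GS array below LRRK2-WT. Trib3, a pseudokinase that binds AKT and is induced in ER stress, differed by 0.54, Tsc1, a brake on mTORC1, by -0.28 and Sh2b1, a receptor adaptor, by 0.26. Without LRRK2-WT array 1 the difference was -0.086 for Insr, -0.076 for Tsc1 and 0.16 for Sh2b1, and Trib3 differed by 0.31 when LRRK2-GS array 1 was left out. Around glucagon, cAMP and CREB, 24 of 25 genes were measured, 8 higher and 14 lower with a median of -0.018. Sik3, a kinase that retains the CREB coactivators in the cytoplasm, was lower on every LRRK2-GS array at -0.53. Adra1b, an adrenergic receptor of hepatocytes, differed by -0.23 and Prkar2a, a regulatory subunit of protein kinase A, by -0.14, both with overlap and both turning sign without single arrays.

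Among transcription factors and coregulators of gluconeogenic genes 32 of 33 were measured, 10 higher and 21 lower with a median of -0.069. The clock repressor Nr1d1 differed by -1.04, the fatty acid receptor Ppara by -0.51 and the liver factor Cebpa by -0.46, and in none of them were the genotypes apart. Without LRRK2-WT array 1 these differences were -0.45 for Nr1d1, -0.017 for Ppara and -0.25 for Cebpa. Nr0b2 encodes the corepressor SHP, whose transcript and protein the study reported as higher in LRRK2-GS astrocytes after tunicamycin, by qPCR and western blotting. The study's text gives no time for those assays and these arrays are labelled 3 h, so the array values do not test that report. The sex difference and the hepatocyte transcripts described above apply here too. On these arrays Nr0b2 read 4.94, 5.58 and 6.19 in LRRK2-GS, against 5.72 and 6.18 in LRRK2-WT. The genotypes overlapped and the difference was -0.38 (95% interval -1.70 to 0.94, limma adjusted p = 0.826). It was -0.065 without LRRK2-GS array 1 and -0.15 when LRRK2-WT array 2 was left out.

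Known targets of FOXO1 were measured for 21 of 22 genes, 9 higher and 11 lower with a median of -0.027. Cdkn1a, a cell cycle inhibitor that stress pathways also induce, differed by 1.08 with overlapping genotypes. Sesn3, an inhibitor of mTORC1, differed by -0.97 with overlap. Txnip, an inhibitor of glucose uptake, was lower on every LRRK2-GS array at -0.77. Igfbp1, a secreted protein that insulin represses in liver, read 11.20, 11.52 and 10.42 in LRRK2-GS, against 10.13 and 10.91 in LRRK2-WT, a difference of 0.53 with overlap. Leaving out LRRK2-WT array 1 brought Cdkn1a to 0.099, Sesn3 to -0.60, Txnip to -0.32 and Igfbp1 to 0.14, so the values of these 4 genes rested in good part on that array. Of the 8 lists the medians lay between -0.075 and 0.0081, beside -0.46 for the 6 genes and 0 for all tested probe sets. The 6 genes were chosen with earlier results of these data known. All 6 lie above the median level, whereas the lists also hold dim and constant genes, so this contrast is a description only.

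**Figure D4:**
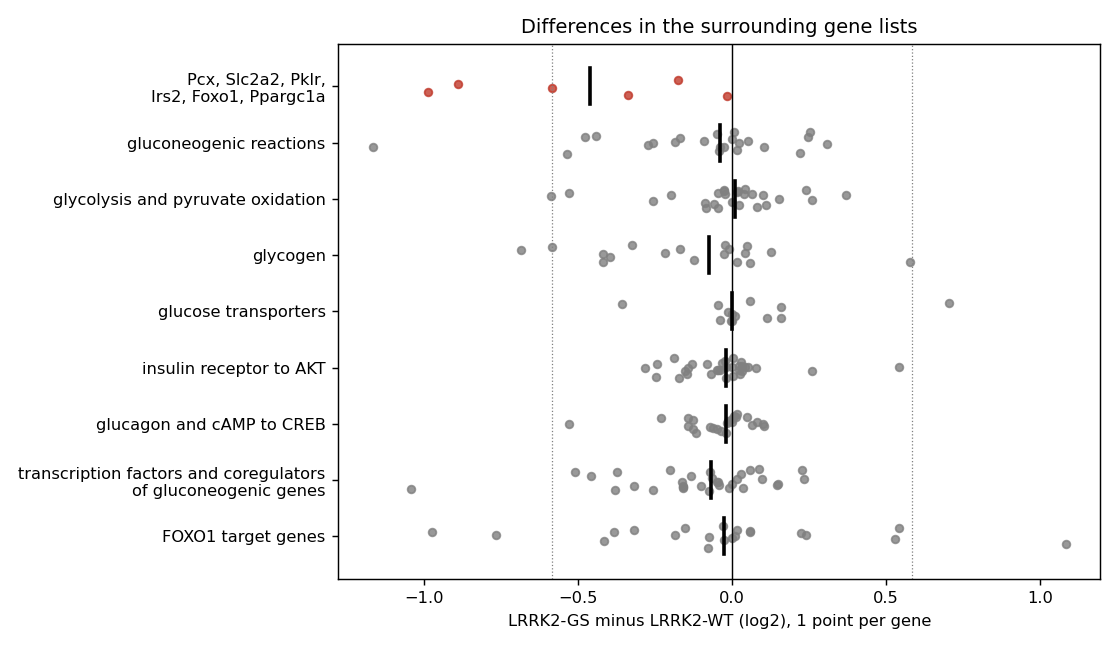
Difference between genotypes (LRRK2-GS minus LRRK2-WT, log2, x axis) with 1 point per measured gene for the 6 genes (red) and the 8 surrounding lists (gray); black bars are medians and dotted lines mark 1.5-fold. The bar lies at -0.46 for the 6 genes and between -0.075 and 0.0081 for the lists, whose points lie on both sides of 0. The 6 genes were chosen with earlier results of these data known, so the bars are a description only.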

How the data were processed

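RNA of 5 tunicamycin-treated samples was hybridised to Affymetrix Mouse Gene 2.0 ST arrays. The authors used the Affymetrix Command Console for export and processing, and the deposited table holds log2 expression values per probe set. The sources used here do not say how background, summarization and normalization were handled, and no further normalization was applied. Gene symbols came from GEO's platform annotation and were brought up to date through gene IDs of GRCm38.p6 (23203 of 23396 found). Probe sets with exactly 1 symbol were tested, while 1812 with several symbols and 8432 with none were not. A gene with several was read from its brightest probe set (highest mean of the 5 arrays). Of the tested probe sets, 1989 did not vary over the arrays and 18203 repeated a value on 2 or more arrays.

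LRRK2-GS was compared with LRRK2-WT in limma 3.58.1 (R 4.3.3) with eBayes at its defaults, without a replicate block, two-sided, and p-values were adjusted by Benjamini-Hochberg over the 23396 tests. Calls needed an adjusted p no higher than 0.05 plus a difference over 1.5-fold, as in the study's methods. The prior of limma had 0.595 degrees of freedom, so each spread rests mostly on that probe set's own 5 values. The steps were tested first on simulated data, with shifts larger than any difference of Pcx, Slc2a2, Pklr, Irs2, Foxo1 or Ppargc1a. That test does not show whether differences of the sizes seen here would be called. Alternatives were a trended robust prior, array weights, quantile and cyclic loess normalization, a filter on dim probe sets, the whole table in place of single-symbol probe sets, averaging all single-symbol probe sets of a gene, the methods' t-test, the replicate block, and each array left out.

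The genes and lists were chosen with earlier results of these data known. Genes named are the 9 with their relatives, Insr, Nr0b2 and Igfbp1, up to 3 of each list with the largest absolute difference among those above the median level, sex-linked and marker genes as a check of the labels, and the 3 nearest profiles of the gene that differed most. Sequences came from RefSeq promoters, matched for 9 of 9 genes. The number of arrays limits the precision.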

Additional observations from a re-analysis of the deposited data

How the results depend on the processing

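The differences of Slc2a2, Pklr, Irs2, Foxo1 and Ppargc1a kept their sign and stayed uncalled under all 14 alternatives. The trended prior, the t-test, the filter on dim probe sets and the whole table change no difference, so only the call could move. Averaging probe sets changed the difference of Foxo1 alone among the 6 genes. Pcx turned to 0.025 with quantile normalization and 0.0058 with cyclic loess, and ranged from -0.14 to 0.047 with single arrays left out, above 0 without the first LRRK2-WT array (0.020) and without array 1 (0.047) or array 2 (0.039) of LRRK2-GS. The median of the 6 genes, -0.46 with all arrays, ranged from -0.63 to -0.24 with single arrays left out and was nearest to 0 without LRRK2-GS array 2. No probe set was called with all arrays. With each array left out the number called ranged from 0 to 28. It was 26 without LRRK2-WT array 1 and 28 when array 2 of that genotype was left out, where the spread of the lone array is taken from the LRRK2-GS arrays, and none of the 6 genes was among them. The count over 1.5-fold was 224 (107 higher and 117 lower), 357 over all probe sets of the table, and 240 to 502 with single arrays left out. With the replicate block it was 461 (179 higher and 282 lower) and 0 were called. The block gives the same differences as leaving out LRRK2-GS array 3, whose number has no partner, with other p-values. Deviations of same-numbered arrays correlated at -0.13 and 0.088. With 2 LRRK2-WT arrays, the deviations of one mirror those of the other, so these correlations cannot show whether same-numbered arrays were paired. Among the relatives, list genes, Insr, Nr0b2 and Igfbp1, 9 values changed sign and 534 did not, while marker genes, sex-linked genes and near profiles were not rerun. With single arrays left out, Adra1b ranged from -0.51 to 0.066 (0.044 without LRRK2-WT array 1), Foxo3 from -0.26 to 0.017, Prkar2a from -0.30 to 0.016, Slc2a4 from -0.086 to 0.080 (0.014 without LRRK2-GS array 2) and G6pc3 from -0.065 to 0.10. G6pc3 also reached -0.0073 with array weights and -0.0013 with quantile normalization. Why these values moved was not tested. With 3 against 2 arrays, the intervals of the 6 genes reach 0.42 (Pcx) to 1.65 (Ppargc1a) log2 units to either side, which limits what these arrays can show.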

Other observations

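The probe sets whose centred values over the 5 arrays lay nearest to those of Ppargc1a belonged to Acss3, Aldh6a1 and Zfp942, at Euclidean distances of 0.28, 0.32 and 0.47 log2 units. Acss3, a mitochondrial acyl-CoA synthetase for short-chain acids, read 3.76, 5.10 and 5.16 on LRRK2-GS arrays 1, 2 and 3, and 5.56 and 5.55 on LRRK2-WT arrays 1 and 2. Aldh6a1, a mitochondrial dehydrogenase of valine breakdown, read 4.96, 6.09 and 6.38 in LRRK2-GS, against 6.36 and 7.0 in LRRK2-WT. Like Ppargc1a, each was lowest on LRRK2-GS array 1. With 5 arrays and 23396 probe sets, near profiles are a description only.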
